A study of Mus musculus with 6 samples.

Results

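Transcripts of the oxidative phosphorylation machinery were examined in sorted cells of mouse mammary tumours. The genes were chosen by symbol from the platform annotation: those starting with Ndufa, Ndufb, Ndufc, Ndufs, Ndufv, Uqcr, Cox4 to Cox8 or Atp5, together with Sdha to Sdhd and Cyc1, and each was represented by 1 probe set, that of highest mean. This gave 91 genes out of 18193 with a symbol of their own on the array, and they are called members below. They comprised 42 for complex I, 4 for complex II, 9 for complex III, 19 for complex IV and 17 for complex V. Of these, 74 encode regular subunits. The prefixes also took in 8 assembly factors of complex I (the Ndufaf genes), 7 isoforms of complex IV known mainly from muscle, lung or testis, and 2 relatives of subunits, Ndufa4l2 and Cox7a2l. Ndufa4 was counted with complex IV, where its protein is now placed.

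Oxidative phosphorylation takes place in the inner mitochondrial membrane. Complex I (NADH dehydrogenase) and complex II (succinate dehydrogenase) pass electrons to ubiquinone, complex III (the cytochrome bc1 complex) passes them on to cytochrome c, and complex IV (cytochrome c oxidase) passes them to oxygen. Complexes I, III and IV pump protons, and complex V (ATP synthase) uses the proton gradient to make ATP. All members are nuclear genes, whose products are imported and, except in complex II, joined with subunits encoded in mitochondrial DNA. Factors of the NRF1, ETS (GABP) and YY1 families are known to act at the promoters of many of these genes.

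The tumours came from 3 MMTV-Wnt-1 mice. In these animals Wnt1 is a transgene under the promoter of a mammary tumour virus, which is active in mammary epithelium. Each tumour was sorted by fluorescence into a population labelled tumorigenic, gated CD24+Thy+CD45-, and a population labelled nontumorigenic, with 1 array per mouse and population. The label of the nontumorigenic population puts a negation before the same gate and does not settle whether CD45 is negated too. All 6 samples share the transgene and the sort, no age or treatment is given in the labels, and the mice are called 1 to 3 as in the titles. The 3 arrays of a population are separate animals, and each animal gave both populations.

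The arrays did not follow the gate in every respect. Ptprc, which encodes CD45, read 10.21, 7.76 and 3.82 on the log2 scale in the arrays labelled tumorigenic of mice 1 to 3, and 2.33, 3.59 and 2.51 in those labelled nontumorigenic, so the populations are called by their labels. Cd24a, for CD24, averaged 12.34 ± 0.50 on the labelled tumorigenic and 12.90 ± 0.08 on the labelled nontumorigenic arrays (SD, n = 3), with a difference of -0.55. Thy1 read 10.83, 10.51 and 9.33 in labelled tumorigenic mice 1 to 3, against 10.25, 9.67 and 10.04, and overlapped. Neither passed (limma adjusted p = 0.635 and 0.898). All 12 macrophage markers examined had a positive difference, and their mean level was 10.56, 8.89 and 5.57 in labelled tumorigenic mice 1 to 3, against 3.86 to 4.17 in the labelled nontumorigenic arrays. All 8 luminal epithelial markers had a negative difference, with a mean level of 6.54 to 8.55 on the labelled tumorigenic arrays and of 9.89 to 10.18 on the others. All 8 endothelial markers had a positive difference, with a mean of 7.09 to 7.74 against 5.48 to 6.20. Of 8 basal markers 7 were positive, with a mean of 9.03 to 10.35 against 8.97 to 9.35. Of the adipocyte markers 4 of 6 tested were positive, with means of 4.86, 6.92 and 5.39 in labelled tumorigenic mice 1 to 3, against 4.24 to 4.37. Of the 3 T cell markers tested 2 were positive, with a mean over the list of 7.94, 4.55 and 3.27 in labelled tumorigenic mice 1 to 3, against 4.69 to 4.82. The gap between the 3' and 5' control probe sets of Gapdh, which widens when RNA is degraded or copied incompletely, was 3.81, 6.60 and 2.62 on the labelled tumorigenic arrays of mice 1 to 3 (log2), against 3.78, 2.41 and 3.10. The 18S rRNA control probe set (3' end) read 7.76, 6.32 and 7.38 on the labelled tumorigenic arrays of mice 1 to 3, against 8.97, 8.52 and 8.66, with no overlap. In sorted bulk samples fewer cells of a type and less RNA per cell cannot be told apart.

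Promoters of the members were searched for 3 short motifs, and 26 of the 74 members with a promoter held at least 1 of them, while 48 held none. RefSeq promoters of the mouse assembly GRCm38.p6, 300 bases from 250 before to 50 after the start of a gene, were found for 74 of the 91 members, in 79 windows. The ETS motif CCGGAAG was present, on either strand, in 19 of these windows (24.1%), against 8.86% of all 32851 promoter windows. The palindromic NRF1 motif of 10 bases, printed in capitals for Cox6a1 below, was present in 6 (7.59%), against 0.971% of all windows. A YY1 motif of 11 bases was present on either strand in 4 (5.06%), against 0.633% of all windows. None of the 3 motifs contains another. A match is a description of the sequence and shows no binding. The windows of all genes were not matched to those of the members in base content or breadth of expression. Whether the shares are particular to the members was therefore not tested. The 250 bases before the start are shown for 6 members, written 5' to 3' on the gene's strand with motif matches in capitals. They are Ndufc1, which had the smallest p among members and holds none of the 3 motifs in its window, Ndufaf8, Ndufb7, Atp5e and Sdhd, 4 of the 6 members that lay higher on every labelled tumorigenic array and hold the ETS motif, and Cox6a1, which holds an NRF1 and an ETS match. In Ndufaf8 the YY1 match lies in the part after the start, which is not shown. Of the 10 members with a promoter that lay higher on every such array, 6 held the ETS motif, against 19 of all 74. The NRF1 and YY1 motifs were each held by 1 of the 10. These 10 were picked by their values, and a link between motif and difference was not tested.
Ndufc1 (chr3:51408956-51409205, minus strand): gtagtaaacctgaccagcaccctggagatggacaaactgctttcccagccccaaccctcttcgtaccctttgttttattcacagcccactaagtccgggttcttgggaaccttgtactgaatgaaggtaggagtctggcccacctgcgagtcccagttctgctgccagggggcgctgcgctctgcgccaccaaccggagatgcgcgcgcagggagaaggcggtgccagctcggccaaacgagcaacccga
Ndufaf8 (chr11:120098684-120098933, plus strand): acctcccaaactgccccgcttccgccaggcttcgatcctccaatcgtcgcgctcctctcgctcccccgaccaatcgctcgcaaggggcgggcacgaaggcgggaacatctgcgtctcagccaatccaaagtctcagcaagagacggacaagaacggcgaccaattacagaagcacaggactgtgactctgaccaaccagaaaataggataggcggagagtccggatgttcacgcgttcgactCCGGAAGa
Ndufb7 (chr8:83566508-83566757, plus strand): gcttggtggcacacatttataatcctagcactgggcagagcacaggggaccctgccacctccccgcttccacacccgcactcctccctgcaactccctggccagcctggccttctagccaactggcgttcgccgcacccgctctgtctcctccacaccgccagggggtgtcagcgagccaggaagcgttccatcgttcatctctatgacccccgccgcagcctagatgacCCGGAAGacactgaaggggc
Atp5e (chr2:174464102-174464351, minus strand): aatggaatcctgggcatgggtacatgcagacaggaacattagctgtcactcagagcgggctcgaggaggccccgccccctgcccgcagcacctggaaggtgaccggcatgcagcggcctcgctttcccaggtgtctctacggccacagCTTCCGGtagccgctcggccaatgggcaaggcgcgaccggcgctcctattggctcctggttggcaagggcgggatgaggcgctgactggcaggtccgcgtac
Sdhd (chr9:50603850-50604099, minus strand): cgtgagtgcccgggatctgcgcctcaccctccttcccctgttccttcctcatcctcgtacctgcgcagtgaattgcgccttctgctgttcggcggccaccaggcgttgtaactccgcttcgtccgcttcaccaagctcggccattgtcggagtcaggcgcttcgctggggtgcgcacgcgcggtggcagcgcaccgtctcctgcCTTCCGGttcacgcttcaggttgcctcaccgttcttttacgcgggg
Cox6a1 (chr5:115348959-115349208, minus strand): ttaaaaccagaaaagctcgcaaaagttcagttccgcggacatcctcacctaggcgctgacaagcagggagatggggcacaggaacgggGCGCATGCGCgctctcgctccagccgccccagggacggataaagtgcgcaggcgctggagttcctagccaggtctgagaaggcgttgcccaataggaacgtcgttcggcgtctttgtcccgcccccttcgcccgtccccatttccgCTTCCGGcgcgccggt

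As a group the members differed little between the populations. Of the 91 members, 89 had a probe set above the filter on dim values (a mean log2 level of 2.98 over the 6 arrays) and were tested. Cox7b2, a testis isoform of complex IV, and Ndufb4, an accessory subunit of complex I, were not. Cox7b2 read 2.49, 2.38 and 2.38 in labelled tumorigenic mice 1 to 3, against 2.33, 2.38 and 2.38 in the labelled nontumorigenic arrays. The Ndufb4 probe set read 2.37, 2.47 and 2.14, against 2.76, 2.23 and 3.09. This is the only Ndufb4 probe set with a single symbol, and 2 others carry several symbols and were not used, so the reading does not show that the gene was undetected. None of the 89 tested members passed a limma adjusted p of 0.05 (0 of 89), and 0 of all 15027 genes tested (0%) did. Their adjusted p ran from 0.443 to 0.997. An unadjusted limma p below 0.05 was found for 7 members, all with higher values under the tumorigenic label, which is 7.87% of the members. Over all genes the share was 8.5% in either direction, so with both directions pooled the count among members lies near the background. By direction the members had 7.87% higher and 0% lower, against 5.23% and 3.27% of all genes.

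The sizes of the differences were small as well. The median absolute log2 difference was 0.17 among members and 0.23 among all genes tested. An absolute difference above 0.5 was found for 6 of 89 members (6.74%), against 22.9% of all genes, and none of the 89 exceeded 1, against 6.85% of all genes. The median spread within a population (pooled SD) was 0.27 for members and 0.34 for all genes. The signs were uneven: 61 of 89 members (68.5%) had a positive difference, against 50.7% of all genes, and the median log2 difference was 0.14 for members and 0.0051 for all genes. Among members the labelled tumorigenic arrays all lay above the labelled nontumorigenic ones in 10 (11.2%) and all below in 1 (1.12%), against 6.9% and 5.59% of all genes. The 10 members were Ndufc1, Ndufa8, Ndufb7, Ndufs3, Ndufs8, Ndufaf5 and Ndufaf8 of complex I, Sdhd of complex II, and Atp5d and Atp5e of complex V, and the 1 below was Ndufaf3. These separations are those of the chosen probe sets. For Ndufc1, Ndufb7, Ndufs8, Ndufaf8, Sdhd and Atp5d another probe set overlapped.

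**Figure D1:**
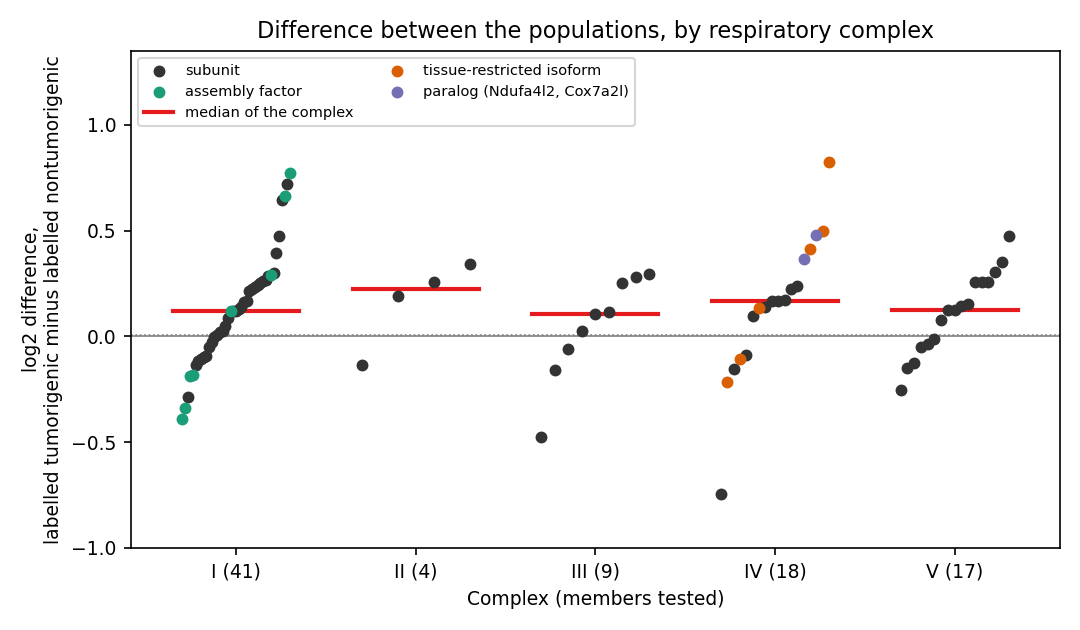
Log2 difference of each of the 89 tested members (points; labelled tumorigenic mean minus labelled nontumorigenic mean, 3 arrays each), sorted within complexes I to V, with the median of the complex as a red line. The dotted line is the median of all genes tested. The points run from -0.75 for Ndufa4 to 0.82 for Cox6b2, and the 5 medians lie between 0.10 and 0.22.

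The 5 complexes had similar medians. The median log2 difference was 0.12 for complex I (28 of 41 positive), 0.22 for complex II (3 of 4), 0.10 for complex III (6 of 9), 0.17 for complex IV (13 of 18) and 0.13 for complex V (11 of 17). With regular subunits alone the medians of complexes I and IV were 0.13 and 0.15. The SD of a complex's median over the 3 mice was 0.25, 0.11, 0.25, 0.20 and 0.21 for complexes I to V, and the gaps between the medians of complexes I, III, IV and V were smaller than these. Leaving out 1 array turned 2 of these medians: that of complex III was -0.079 without the labelled nontumorigenic array of mouse 2, and that of complex V was -0.013 without the labelled tumorigenic array of mouse 3. With mouse 1 left out of the labelled tumorigenic arrays, the medians of complexes I, III, IV and V were 0.21, 0.14, 0.25 and 0.32, the highest of any array left out. With mouse 2 left out there, complexes I and IV had their lowest values, 0.024 and 0.083. Complex II ran from 0.14 without the labelled nontumorigenic array of mouse 3 to 0.27 without that of mouse 1.

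The mice disagreed in sign. In mouse 1 the difference was positive for 31 of 89 members (34.8%, against 45.4% of all genes), in mouse 2 for 65 (73.0%, against 53.3%) and in mouse 3 for 69 (77.5%, against 49.2%). The medians of complexes I, III, IV and V were -0.16, -0.26, -0.058 and -0.11 in mouse 1. They were 0.29, 0.21, 0.25 and 0.29 in mouse 2 and 0.23, 0.090, 0.31 and 0.20 in mouse 3. Complex II ran otherwise, with medians of 0.24, 0.036 and 0.085 in mice 1 to 3 and all 4 of its genes positive in mouse 1. A positive difference in all 3 mice was found for 22 members (24.7%) and a negative one for 4 (4.49%), against 15.9% and 14.3% of all genes. The 4 were Ndufc2 and Ndufaf3 of complex I, Uqcrb of complex III and Ndufa4 of complex IV. Ndufc2, a regular subunit, differed by -0.29 (limma SE 0.17, adjusted p = 0.688), and its 4 probe sets ran from -0.62 to 0.04.

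Array by array, the contrast between mice in complexes I and V lay more in the labelled tumorigenic arrays than in the labelled nontumorigenic ones. Relative to each gene's own mean over the 6 arrays, complex I had a median deviation of -0.13, 0.20 and 0.15 in labelled tumorigenic mice 1 to 3, against -0.0050, -0.14 and -0.061 in the labelled nontumorigenic arrays. Complex V had -0.16, 0.17 and 0.19, against -0.0057, -0.079 and 0.0052. In complexes III and IV the labelled nontumorigenic arrays moved as well. Complex III had -0.21, 0.19 and 0.14, against 0.12, -0.12 and 0.063. Complex IV had -0.082, 0.27 and 0.12, against -0.15, 0.045 and -0.15. The labelled tumorigenic array of mouse 2 held the highest value of 36 of 89 members (40.4%, against 19.9% of all genes). That of mouse 3 held the highest value of 23 (25.8%, against 16.4%) and that of mouse 1 of 5 (5.62%, against 16.5%). The lowest value lay on the labelled tumorigenic array of mouse 1 for 23 members (25.8%, against 24.5% of all genes). It lay on the labelled nontumorigenic array of mouse 3 for another 23 (25.8%, against 15.5%). The labelled tumorigenic array of mouse 1 is the one with the highest macrophage markers. That of mouse 2 is the one with the widest Gapdh gap and the lowest 18S rRNA value. The part of cell mix and RNA quality in these shifts was not tested. Without the labelled tumorigenic array of mouse 1, 68 of 89 members had a positive difference, and without that of mouse 2, 56 of 89.

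**Figure D2:**
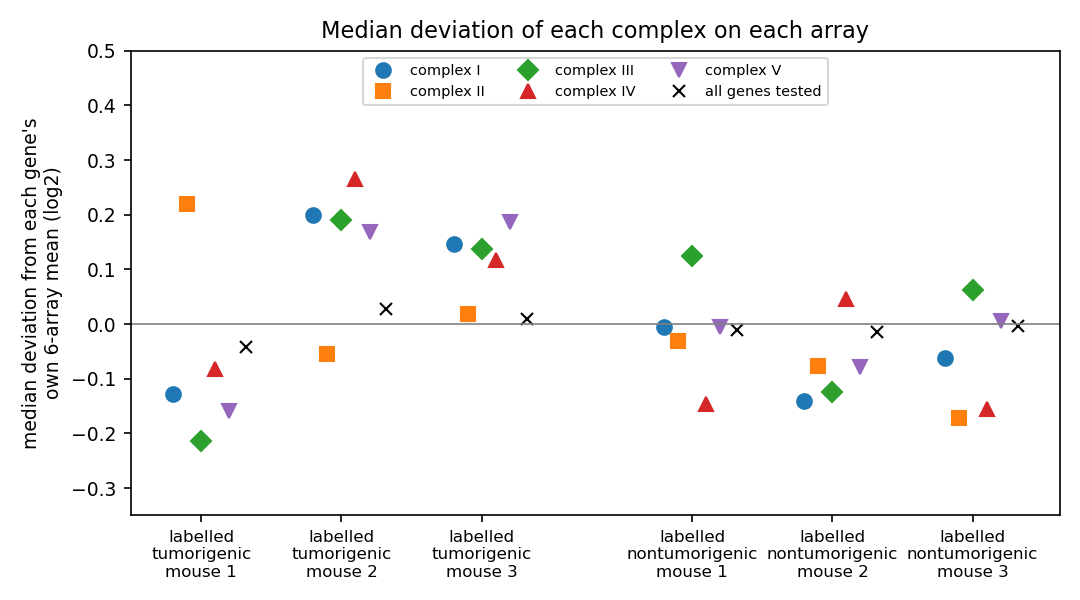
Median deviation of each complex from its genes' own 6-array means (log2, y axis) on each array (x axis), with all genes tested as crosses. Complexes I, III, IV and V lie between -0.21 and -0.082 on the labelled tumorigenic array of mouse 1 and between 0.12 and 0.27 on those of mice 2 and 3, while complex II is at 0.22 on that of mouse 1.

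In complex I the gene with the smallest p was Ndufc1, an accessory subunit of the membrane arm. Its values were 9.99, 9.95 and 10.001 in labelled tumorigenic mice 1 to 3, against 9.55, 9.28 and 9.19 in the labelled nontumorigenic arrays. On this probe set the populations did not overlap, and the labelled tumorigenic values lay within a few hundredths of each other. The population means were 9.98 ± 0.02 and 9.34 ± 0.19 (SD, n = 3 each). They differed by 0.64 log2 units (limma SE 0.16, adjusted p = 0.443), and the other probe set of the gene gave 0.70.

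Ndufa8, an accessory subunit with a twin CHCH fold, read 7.47, 8.04 and 7.59 in labelled tumorigenic mice 1 to 3, against 7.30, 7.07 and 6.57. The log2 difference was 0.72 (limma SE 0.26, adjusted p = 0.539), and it was smallest in mouse 1, at 0.17. Ndufb7, another accessory subunit of the CHCH type, read 10.92, 10.88 and 10.70, against 10.31, 10.55 and 10.47, a log2 difference of 0.39 (limma SE 0.16, adjusted p = 0.579). Its second probe set gave -0.063, so the sign rests on the probe set. Ndufb11, an accessory subunit named because its probe set had the highest mean in the complex, averaged 12.35 ± 0.07 on the labelled tumorigenic and 12.37 ± 0.10 on the labelled nontumorigenic arrays (SD, n = 3). The difference was -0.03 (95% interval -0.39 to 0.33, limma adjusted p = 0.972).

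The catalytic core of complex I, the conserved subunits that take up electrons from NADH and lead them to ubiquinone, is represented by 6 genes, of which 4 had a positive difference, with a median of 0.068. Ndufs8, which binds a pair of iron-sulphur clusters, read 9.09, 9.40 and 9.07 in labelled tumorigenic mice 1 to 3, against 8.70, 8.94 and 8.50, and all 6 of its probe sets had a positive difference, from 0.014 to 0.51. Ndufs3, of the arm that binds ubiquinone, read 9.76, 9.64 and 9.75, against 9.50, 9.46 and 9.52. On their chosen probe sets both genes lay higher on every labelled tumorigenic array, by 0.47 (limma SE 0.19, adjusted p = 0.584) and 0.22 (limma SE 0.14, adjusted p = 0.706) log2 units. The next brightest Ndufs8 probe set did not overlap either, while its dimmer ones did. Ndufv1, the NADH-binding subunit, had a difference of 0.09, and Ndufs1, the largest core subunit, one of -0.10. Of 27 tested accessory subunits 20 had a positive difference, with a median of 0.14. In mouse 1 only 7 of these 27 were positive, against 24 in mouse 2 and 20 in mouse 3.

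The 8 assembly factors of complex I, which help build it and are not part of the finished enzyme, split evenly, with 4 of 8 positive and a median of -0.032. Ndufaf8 read 7.95, 8.51 and 7.88 in labelled tumorigenic mice 1 to 3, against 7.02, 7.49 and 7.52. The populations did not overlap, with a log2 difference of 0.77 (limma SE 0.25, adjusted p = 0.521), but its dimmer probe set gave 0.0078. Ndufaf5 read 6.21, 5.60 and 5.72, against 4.95, 5.57 and 5.01, a log2 difference of 0.66 (limma SE 0.26, adjusted p = 0.568). Its gap in mouse 2 was 0.026, so its populations were separated by a narrow margin. Ndufaf3 ran the other way, at 5.41, 5.57 and 5.56 against 5.70, 6.31 and 5.70, a log2 difference of -0.39 (limma SE 0.22, adjusted p = 0.676).

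Complex II, the only complex here without a subunit from mitochondrial DNA, also works in the citric acid cycle. Sdhd, a membrane anchor, read 8.49, 8.28 and 8.35 in labelled tumorigenic mice 1 to 3, against 8.16, 8.02 and 8.17. On this probe set the populations did not overlap, and the log2 difference was 0.25 (limma SE 0.15, adjusted p = 0.687). Its other probe set gave 0.34 but overlapped, with mouse 2 at 6.85 under the tumorigenic and 7.05 under the nontumorigenic label. Sdhb, the iron-sulphur subunit, read 8.33, 8.41 and 7.70, against 7.93, 7.78 and 7.71, so mice 1 and 2 gave its difference of 0.34 (limma SE 0.23, adjusted p = 0.723) and mouse 3 gave -0.0081. Sdhc, the other anchor, had a difference of 0.19 (SE 0.23), with -0.31 in mouse 2. Sdha, the flavoprotein, read 9.88, 9.73 and 9.81, against 9.86, 9.92 and 10.05, a difference of -0.14 (limma SE 0.15, adjusted p = 0.823), and its 4 probe sets had both signs, from -0.14 to 0.48.

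In complex III no gene separated the populations, and values of both signs occurred. Uqcrfs1, the Rieske iron-sulphur protein, read 8.49, 8.70 and 9.50 in labelled tumorigenic mice 1 to 3, against 9.31, 9.37 and 9.44. It was lower on the labelled tumorigenic arrays of mice 1 and 2 and level in mouse 3, with a log2 difference of -0.47 (limma SE 0.28, adjusted p = 0.692). Cyc1, which encodes cytochrome c1, differed by 0.11, and the core proteins Uqcrc1 and Uqcrc2 by 0.02 and -0.06. Of the 5 other subunits 4 had a positive difference. Uqcrh, the hinge protein, read 10.39, 10.80 and 10.94, against 10.52, 10.59 and 10.17, a difference of 0.28 (limma SE 0.22, adjusted p = 0.760). Uqcr11 differed by 0.30 (limma SE 0.28, adjusted p = 0.798) and was positive in all 3 mice. Uqcrb, which binds ubiquinone, read 11.49, 11.74 and 11.94, against 11.78, 11.83 and 12.05, a difference of -0.16 (limma SE 0.18, adjusted p = 0.832) with a negative sign in all 3 mice.

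In complex IV the 10 regular subunits had a median of 0.15, and 9 of them differed by 0.24 or less in either direction. The exception was Ndufa4, whose values were 6.32, 6.32 and 7.43 in labelled tumorigenic mice 1 to 3, against 6.49, 7.81 and 8.002. Its value was lower under the tumorigenic label in each mouse, with differences of -0.18, -1.49 and -0.57, but the populations overlapped and the log2 difference of -0.75 had an SE of 0.51 (limma adjusted p = 0.718). Cox4i1, the ubiquitous form of subunit 4, read 10.15, 10.75 and 10.72, against 10.19, 10.52 and 10.49, a difference of 0.14 (SE 0.22). Cox7a2, the common form of subunit 7A, averaged 12.16 ± 0.15 on the labelled tumorigenic and 12.07 ± 0.17 on the labelled nontumorigenic arrays (SD, n = 3), and the difference was 0.10 (95% interval -0.32 to 0.52, limma adjusted p = 0.899). Cox7a2l, related to subunit 7A and known to help join complexes III and IV, read 9.94, 10.44 and 10.21, against 9.47, 10.07 and 9.95. It was positive in all 3 mice and on all 3 of its probe sets, with a log2 difference of 0.37 (limma SE 0.23, adjusted p = 0.705).

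The tissue-restricted isoforms of complex IV varied more between arrays, with a median SD within populations of 0.56 against 0.27 over all members. Cox6b2, known as the testis form of subunit 6B, read 6.46, 6.45 and 6.001 in labelled tumorigenic mice 1 to 3, against 5.39, 6.28 and 4.78. Its difference of 0.82 (limma SE 0.40, adjusted p = 0.632) was positive in all 3 mice, but the populations overlapped. Cox4i2, the form of subunit 4 known from lung and from low oxygen, read 6.25, 6.47 and 4.89, against 5.83, 5.88 and 4.41. Both mouse 3 arrays lay below all 4 others, and within each mouse the labelled tumorigenic array was higher, by 0.42, 0.59 and 0.48. The log2 difference of 0.50 had an SE of 0.57 without the mouse in the fit (limma adjusted p = 0.832), and with the mouse as a block the adjusted p was 0.504.

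Ndufa4l2, a relative of Ndufa4 known to respond to low oxygen, followed Cox4i2 from array to array. Its values were 7.39, 7.71 and 5.81 in labelled tumorigenic mice 1 to 3, against 6.92, 6.77 and 5.78, a log2 difference of 0.48 (limma SE 0.57, adjusted p = 0.841). Its Pearson correlation with Cox4i2 over the 6 arrays was 0.97. Of 15026 genes compared, 118 correlated with Cox4i2 above 0.9, Ndufa4l2 ranked 10 among them and Vtn, which encodes vitronectin, ranked 1, at 0.996. The 6 arrays share mice and populations, and this pair was chosen after its values were seen.

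The isoforms known from heart and skeletal muscle had differences of both signs. Cox6a2 read 5.14 to 5.21 on the labelled tumorigenic arrays and 5.14 to 5.36 on the others, a difference of -0.11 (95% interval -0.47 to 0.25, limma adjusted p = 0.859). Cox7a1 read 3.60, 4.46 and 4.02, against 3.70, 5.40 and 3.64, a difference of -0.22 (limma SE 0.53, adjusted p = 0.931) in which the high value was the labelled nontumorigenic array of mouse 2. Without that array the Cox7a1 difference was 0.36. Cox8b read 3.51, 5.04 and 4.61, against 4.02, 3.95 and 3.95, a difference of 0.41 (limma SE 0.39, adjusted p = 0.796) in which the labelled tumorigenic arrays of mice 2 and 3 were high. Cox8c, a testis form, differed by 0.14 (SE 0.18). The 5 skeletal muscle markers had a mean level of 3.64 to 3.76 on the labelled tumorigenic arrays and of 3.79 to 4.14 on the others.

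**Figure D3:**
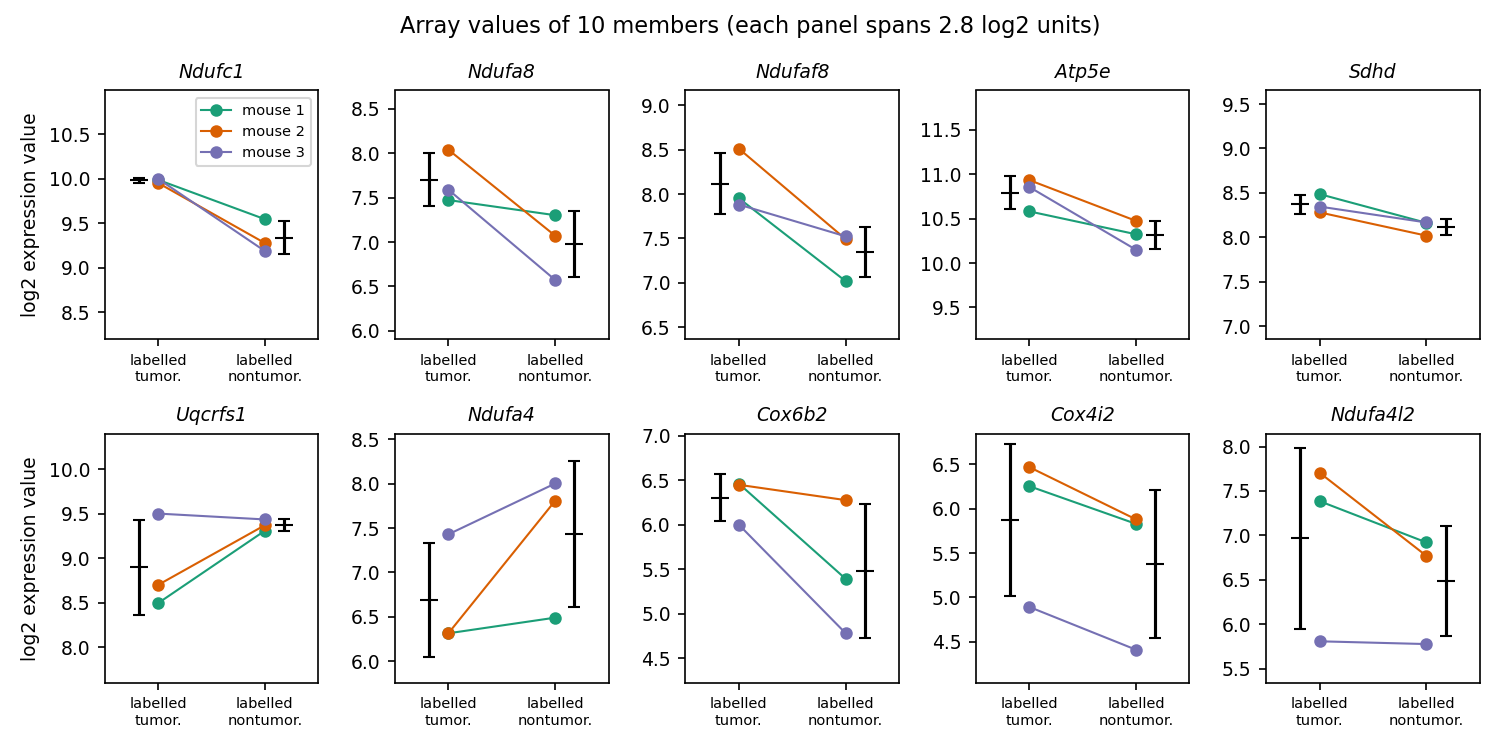
Log2 expression values of 10 members on each array, labelled tumorigenic left and labelled nontumorigenic right; lines join the arrays of a mouse, and the black bars beside them are mean ± SD over 3 arrays. Every panel spans the same range. On the probe sets drawn, Ndufc1, Ndufa8, Ndufaf8, Atp5e and Sdhd show no overlap between the populations. The mouse 3 arrays of both populations lie below the others for Cox4i2 and Ndufa4l2.

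In complex V the large F1 subunits differed by 0.05 or less, and several small subunits had positive differences. Atp5a1, the alpha subunit of the F1 head, read 12.21, 12.06 and 12.18 in labelled tumorigenic mice 1 to 3, against 12.27, 12.05 and 12.16, a log2 difference of -0.01 (95% interval -0.38 to 0.35, limma adjusted p = 0.987). Atp5b (beta) and Atp5c1 (gamma) differed by -0.03 and -0.05. The remaining F1 subunits, epsilon and delta of the central stalk, lay higher on every labelled tumorigenic array on their chosen probe sets. Atp5e (epsilon) read 10.58, 10.93 and 10.86, against 10.32, 10.47 and 10.15, a difference of 0.47 (limma SE 0.18, adjusted p = 0.554). Atp5d (delta) read 10.75, 11.003 and 10.80, against 10.47, 10.37 and 10.67, a difference of 0.35 (limma SE 0.17, adjusted p = 0.632). Its other probe set gave 0.21 and overlapped, at 9.04, 9.50 and 9.68 against 9.12, 9.37 and 9.09.

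Of the peripheral stalk, which holds the head in place, 2 of 4 subunits were positive. Atp5o read 10.42, 10.64 and 10.69 in labelled tumorigenic mice 1 to 3, against 10.30, 10.12 and 10.42, a difference of 0.30 (limma SE 0.17, adjusted p = 0.676). Atp5pb, subunit b, differed by -0.25 (SE 0.20). The 3 genes for the proton-carrying c ring, Atp5g1, Atp5g2 and Atp5g3, encode the same mature protein in mammals and differed by 0.13, 0.12 and -0.13. All 5 of the small membrane subunits, Atp5j2, Atp5k, Atp5l, Atp5md and Atp5mpl, had a positive difference, from 0.08 to 0.26, though in mouse 1 none of the 5 (0) was positive.

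Agreement between probe sets limited how far a single sign could be read. The 91 members were covered by 180 probe sets with a single symbol. Of 51 members with more than 1 probe set, 19 had probe sets of both signs. The probe sets lay farthest apart in Ndufa7, whose 5 probe sets gave differences from -0.97 to 0.12. In Cox5b the range was -0.83 to 0.24, and 4 of its 6 probe sets were positive. Chosen probe sets ending in _x_at, which may bind related sequences, were 9, all with a positive difference and a median of 0.24. Those ending in plain _at were 39, of which 23 were positive, with a median of 0.079. Those ending in _a_at were 30, of which 23 were positive, with a median of 0.13. Those ending in _s_at were 13, of which 7 were positive, with a median of 0.14. A further 10 probe sets carry several symbols, at least 1 of them fitting the rule, and were not used. Ndufa11 and Ndufs6, accessory subunits of complex I, are on such probe sets alone and so are not members.

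Other genes of mitochondrial energy metabolism did not share the positive sign throughout, and 0 of them passed a limma adjusted p of 0.05. Of 36 further assembly factors 21 were positive, with a median of 0.070 and medians of -0.20, 0.12 and 0.0097 in mice 1 to 3. Coa5 alone had an unadjusted limma p below 0.05 (1 of 36, 2.78%, against 8.5% of all genes). Its difference was 0.46 (limma adjusted p = 0.522). Nubpl, which inserts iron-sulphur clusters into complex I, differed by -0.86 (limma SE 0.38, adjusted p = 0.608), with 0.078 in mouse 2. Of 17 genes for electron carriers and ubiquinone synthesis 5 were positive, with a median of -0.23 and 0 unadjusted p below 0.05. Among these Coq10b differed by -0.35 and Coq5, a methyltransferase, by 0.37. Of 18 genes of pyruvate dehydrogenase and the citric acid cycle 5 were positive, with a median of -0.095 and medians of -0.25, 0.048 and 0.079 in mice 1 to 3, and the subunits Pdhx and Dlat of pyruvate dehydrogenase differed by 0.65 and -0.56.

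Of 7 genes for carriers and channels of ATP and phosphate, and for the inhibitor of ATP synthase, 3 were positive. Atpif1, the inhibitor of ATP synthase, read 9.97, 10.50 and 10.35 in labelled tumorigenic mice 1 to 3, against 9.61, 9.72 and 9.86, a log2 difference of 0.54 (limma SE 0.20, adjusted p = 0.536). Slc25a4, an ADP and ATP carrier, read 10.58, 10.73 and 10.68, against 10.20, 10.49 and 10.08, a log2 difference of 0.41 (limma SE 0.17, adjusted p = 0.595). Neither gene overlapped between the populations. The 76 mitochondrial ribosomal proteins had 43 positive differences and a median of 0.018, with medians of -0.22, 0.18 and 0.27 in mice 1 to 3. An unadjusted limma p below 0.05 was found for 2 of them (2.63%, against 8.5% of all genes), Mrps34 (difference 0.81) and Mrps18a (0.60). Of 17 regulators of mitochondrial gene expression 6 were positive, with a median of -0.11. Nrf1, which encodes the factor of the NRF1 motif, differed by 0.42 (limma SE 0.27, adjusted p = 0.707), and Polrmt, the mitochondrial RNA polymerase, by -0.57 (limma SE 0.28, adjusted p = 0.632).

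**Figure D4:**
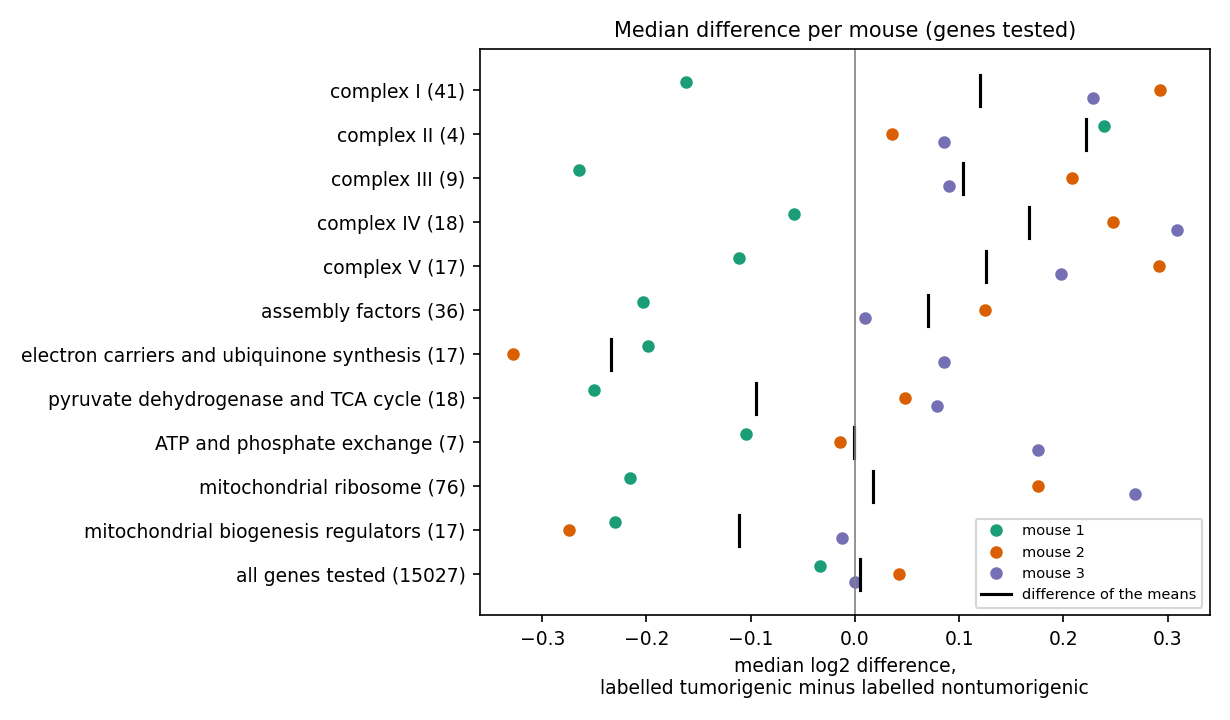
Median log2 difference (x axis) of each complex and of 6 other mitochondrial gene lists in mice 1, 2 and 3 (points) and of the difference between population means (black bars), with all genes tested at the bottom. Complexes I, III, IV and V lie below 0 in mouse 1 and above 0 in mice 2 and 3, and the mitochondrial ribosome, the further assembly factors and the pyruvate dehydrogenase and citric acid cycle list have the same order of signs.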

How the data were processed

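RNA of sorted cells was amplified, labelled and hybridised to Affymetrix arrays, per the labels' protocols. The authors deposited log2 values, 1 per probe set and array, made with RMA (robust multi-array averaging) per the submitters' processing notes. No source used here gives its version. RMA sets the arrays to a common distribution, so it takes away any shift common to most transcripts. The log2 scale was inferred from a highest value of 13.87 and array medians of 4.36 to 4.40. The number of arrays limits the precision. The values of different probe sets are not comparable as levels. Means served to filter, choose and name probe sets, to point out dim ones and to sum up marker lists. Results are read as differences between arrays.

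Of 45101 probe sets, 64 were controls, 34945 carried a single gene symbol, 932 several and 9160 none. The dimmest 25% by mean were left out, and each gene was represented by its probe set with the highest mean, which left 15027 genes. Populations were compared with limma 3.58.1 in R 4.3.3 (lmFit, eBayes; 6 arrays, no covariate, two-sided, Benjamini-Hochberg over all 15027 genes); the script was tested on simulated data. Intervals are 95% intervals from that fit. An exact permutation test of 3 against 3 arrays cannot go below 0.1 and was not used. The members, gene lists and tests were chosen with earlier results of these data known. Named members were those with the smallest p in each complex, all of complex II, the highest probe set of each complex, all tissue-restricted isoforms and members under the dim filter; the other genes named, among them Ndufs3, Ndufs8, Ndufaf3, Ndufa4l2 and Vtn, were chosen after their values were seen. For each other mitochondrial list the 2 genes with the smallest p are named. The 10 members drawn by array and the promoters printed were also picked after values were seen.

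Titles name the same mice in both populations, so the mouse numbers pair the arrays. As a check, the 2 arrays of mice 1, 2 and 3, each taken relative to its population mean, had correlations across genes of 0.079, 0.136 and 0.0864. Between arrays of different mice the correlations ran from -0.0833 to -0.0104. Taking out a mean of 3 arrays ties these values to each other, so the check is weak. The mouse as a block was one alternative, beside other filters, normalisations, priors, weights, gene representations, and fits without an array or a mouse.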

Additional observations from a re-analysis of the deposited data

How the results depend on the processing

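No member passed an adjusted p of 0.05 in any of the alternatives run, and the lowest adjusted p of a member in them was 0.150. With the mouse as a replicate block 0 of 15027 genes and 0 members passed, 6 members had an unadjusted p below 0.05 (9.55% of all genes did, and 6.74% of members), the smallest adjusted p of a member was 0.464, and the medians of complexes I to V, 0.12, 0.22, 0.10, 0.17 and 0.13, stayed as they are because the design is balanced. Over all genes 1 passed with no dim filter and 1 when probe sets of a gene were averaged. Leaving out an array or a mouse gave 0 to 18 genes, the 18 without the labelled tumorigenic array of mouse 3, where 0 members passed. The complex II median was 0.34 with the probe set of highest variance and 0.11 to 0.27 without an array or a mouse. A further alternative, chosen after seeing the data, set only the mouse 3 array of the labelled tumorigenic population against the labelled nontumorigenic arrays and gave 0.062 for complex II and 0.20, 0.16, 0.20 and 0.26 for complexes I, III, IV and V, with 68 of 89 members positive. That lone array is assumed to vary like the others.

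Of 27 named members tested, 16 kept their sign under every alternative run. Many of the 27 were named for a small p in these data. Some alternatives, such as the mouse as a block or another prior, cannot change a difference. The count therefore does not measure how stable the signs of members are. Without a single array, Atp5a1 ran from -0.067 to 0.041, Cox7a1 from -0.52 to 0.36, Cox7a2 from -0.0026 to 0.18 and Ndufb11 from -0.066 to 0.030. Without mouse 1, Atp5a1 was 0.012 and Ndufb11 0.0098, without mouse 2 Cox7a1 was 0.14, and without mouse 3 Cox7a2 was -0.034 and Sdhc -0.080. Atp5a1 was 0.0082 after repeated quantile normalisation. With the mean of probe sets, Ndufb11 was 0.056 and Sdha 0.15. With the probe set of highest variance, Ndufb11 was 0.19, Ndufb7 -0.063 and Sdha 0.48. In the comparison of that mouse 3 array, Atp5a1 was 0.021, Cox4i2 -0.48, Sdhb -0.11, Uqcrb 0.057 and Uqcrfs1 0.13. The causes were not tested.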
